A study of Homo sapiens with 12 samples.

Results

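A pair of sublines of the human mast cell line HMC-1 that each carry 1 activating variant of the receptor KIT, at different positions, were compared by RNA sequencing. HMC-1.3 clone 1 carries D816V-KIT alone and HMC-1.1 carries V560G-KIT alone. The comparison takes the 3 libraries titled HMC-1.3 clone 1 and the 3 libraries titled HMC-1.1, which is 6 of the 12 libraries of the series. The other 6 come from HMC-1.2, which carries both V560G and D816V, and from HMC-1.3 clone 2, which also carries D816V alone.

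HMC-1 is an established cell line from a mast cell leukaemia, and HMC-1.1 and HMC-1.2 are sublines found within its cultures. HMC-1.3 was made from HMC-1.2 by CRISPR/Cas9 editing that changed the V560G codon back to the normal one, and clone 1 is a single edited clone. HMC-1.1 is therefore not the parent of clone 1. Both sublines are heterozygous for their variant and received no treatment. The variant, the separate culture histories and the editing and cloning cannot be told apart in this comparison. The 3 libraries of each subline came from wells plated in triplicate, so p-values measure the spread between wells and not between independent derivations.

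KIT is the receptor for stem cell factor and the growth factor receptor on which mast cells depend. V560 lies in the juxtamembrane region, which holds the unstimulated kinase in check, and D816 lies in the activation loop of the kinase domain. Variants at both sites signal without ligand, mainly through the PI3K and AKT, RAS and ERK, and JAK and STAT5 pathways, and D816V is the variant usually found in systemic mastocytosis.

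Library totals ran from 36120882 to 38098951 counts in HMC-1.1 and from 34387866 to 36899392 in clone 1, so depth was similar in both groups. Mitochondrial genes took 1.84 to 2.28% of the counts in HMC-1.1 and 2.27 to 2.60% in clone 1, and the 20 most abundant genes took 7.77 to 7.94% and 7.77 to 8.23%. The library of clone 1 replicate 3 is labelled as resent, and no further explanation is given. Gene counts carry no base calls, so the KIT variant of a library could not be read from them. Levels are given in CPM, a gene's counts relative to the library total after trimmed-mean scaling, with replicates 1, 2 and 3 in that order. Changes are log2 fold changes of clone 1 minus HMC-1.1 with an approximate standard error (SE). The SE is the size of the change divided by the square root of the F statistic of edgeR's quasi-likelihood test. Adjusted p-values are those of this test, by the Benjamini-Hochberg method over all genes tested. A gene was called where the adjusted p was under 0.05 and the change exceeded 1.5-fold. In bulk RNA, fewer cells expressing a gene and less RNA per cell cannot be told apart.

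The transcriptomes of clone 1 and HMC-1.1 differed at few genes by over 1.5-fold. Of 15944 genes tested, 161 were called, which is 1.01%. Of these, 107 were higher in clone 1 (0.671% of the genes tested) and 54 were lower (0.339%). DESeq2 called 87, 55 higher and 32 lower, and the edgeR count was 107 without clone 1 replicate 2 and 197 without clone 1 replicate 3, 97 of them lower. The fold criterion decided most of this: by the adjusted p alone, 1415 genes were higher (8.87%) and 1568 lower (9.83%). Among the 10887 genes that averaged 5 CPM or more, the median size of the log2 fold change was 0.09, the 95th percentile was 0.31 and the 99th was 0.49. The median log2 fold change over all genes tested was 0.007.

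Among the 161 genes called, 100 had a mean of at least 1 CPM and 61 lay below it, so much of the list rests on few reads. Changes over 2-fold were called for 30 genes higher and 24 lower. In 158 of the 161 genes every clone 1 library lay on one side of every HMC-1.1 library, against 33.3% of all genes tested. The 161 were selected by p and fold in these same libraries, so this follows largely from the selection. The 3 genes with overlapping libraries were AC138035.2, RAB43 and DKKL1, named after their values were seen. By Gencode annotation 116 of the called genes are protein coding.

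**Figure D1:**
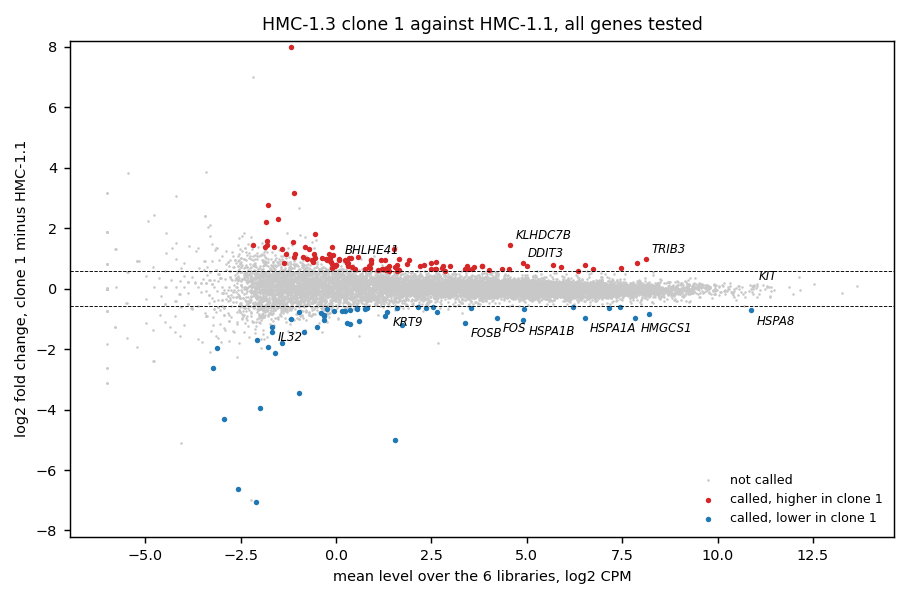
Each point is 1 of the 15944 genes tested, with its mean level over the 6 libraries (x axis, log2 CPM) and its log2 fold change, clone 1 minus HMC-1.1 (y axis). Red and blue points are the 107 and 54 genes called higher and lower in clone 1, and the dashed lines mark 1.5-fold. Abundant genes lie close to 0, and the largest fold changes are at low levels.

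Genes of sterol and fatty acid synthesis were lower in clone 1. Most of them are targets of the SREBP transcription factors, which cells activate when membrane cholesterol is low. Their promoters commonly combine an SREBP site with a CCAAT box, the site bound by NF-Y. The 250 bases before the transcription start are shown for 3 of the called genes, because these members moved together, with each CCAAT on either strand (read as ATTGG on the other strand) in capitals. The sequences are RefSeq's, on GRCh38.p14, and read 5′ to 3′ along the gene. HMGCS1 lies at chr5:43313413-43313662 on the minus strand, MVK at chr12:109573544-109573793 on the plus strand and MSMO1 at chr4:165327419-165327668 on the plus strand.
HMGCS1: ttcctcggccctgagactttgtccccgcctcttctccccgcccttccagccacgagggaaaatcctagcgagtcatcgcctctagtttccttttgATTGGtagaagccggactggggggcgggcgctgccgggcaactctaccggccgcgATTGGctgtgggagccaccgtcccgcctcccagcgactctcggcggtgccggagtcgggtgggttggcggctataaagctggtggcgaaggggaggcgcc
MVK: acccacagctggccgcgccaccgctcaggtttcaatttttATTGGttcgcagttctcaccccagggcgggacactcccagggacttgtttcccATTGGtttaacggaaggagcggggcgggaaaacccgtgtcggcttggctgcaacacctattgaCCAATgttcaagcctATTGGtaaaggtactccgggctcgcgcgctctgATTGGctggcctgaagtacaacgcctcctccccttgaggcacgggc
MSMO1: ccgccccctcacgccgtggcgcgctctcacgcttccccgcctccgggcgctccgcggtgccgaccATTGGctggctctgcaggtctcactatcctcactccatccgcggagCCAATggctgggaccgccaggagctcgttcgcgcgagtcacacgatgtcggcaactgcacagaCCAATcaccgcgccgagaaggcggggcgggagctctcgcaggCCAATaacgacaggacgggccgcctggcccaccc

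The CCAAT letters stood 2 times in the HMGCS1 promoter, 5 times in MVK and 4 times in MSMO1. Of the 23 genes of the list that were tested, 17 had a promoter entry, and 13 of the 17 (76.5%) held CCAAT on at least 1 strand, against 32.0% of 35116 promoters of the same length. TCACNCCAC, a form of the sterol regulatory element, was found in 1 of the 17 (5.88%), SREBF2, against 0.883% of all promoters. These matches describe letters in a window and not bound sites.

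All 23 tested genes of the sterol and fatty acid list were lower in clone 1 at the adjusted p, against 9.83% of all genes tested. In each of the 23 every clone 1 library lay under every HMC-1.1 library, against 15.6% of all genes in that direction. The list has 24 members, 5 were called past 1.5-fold (0.339% of all genes tested were called lower), and the median log2 fold change was -0.41.

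HMGCS1, the synthase that makes HMG-CoA at the entry to the mevalonate pathway, had the largest fall of the list. It stood at 306, 304 and 294 CPM in HMC-1.1 and at 154, 154 and 157 CPM in clone 1. All 3 clone 1 libraries were near 0.515 of the HMC-1.1 level, and the log2 fold change was -0.96 (SE 0.03, adjusted p = 4.35e-12 by edgeR). MVK, the mevalonate kinase, stood at 39.9, 35.3 and 37.9 CPM against 23.8, 24.2 and 22.7 CPM in clone 1, a log2 fold change of -0.68 (SE 0.05). The groups did not overlap for either HMGCS1 or MVK.

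MSMO1, a methylsterol oxidase of the later cholesterol pathway, stood at 91.7, 87.4 and 89.2 CPM in HMC-1.1 and at 59.4, 56.5 and 58.5 CPM in clone 1. Its log2 fold change was -0.62 (SE 0.04). FASN, the fatty acid synthase, stood at 376, 392 and 377 CPM in HMC-1.1 and at 206, 205 and 226 CPM in clone 1, a log2 fold change of -0.85 (SE 0.06, adjusted p = 5.11e-08 by the same test). These called genes of the list span both the cholesterol and the fatty acid branch.

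The other 18 tested members fell by less than 1.5-fold. DHCR7, the last reductase of cholesterol synthesis, had a log2 fold change of -0.52 (SE 0.04). INSIG1, which retains SREBP in the endoplasmic reticulum, had -0.42 (SE 0.04) and SQLE, the squalene epoxidase, also had -0.42 (SE 0.03). The smallest fall was that of SREBF2, the gene of the SREBP that drives sterol genes, at -0.11 (SE 0.03, adjusted p = 0.00901 by edgeR). Every other tested member fell by more than this.

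Clone 2 against HMC-1.2 is a comparison of other cells without and with V560G, and both carry D816V, whereas HMC-1.1 lacks D816V. It shares no library with clone 1 against HMC-1.1, and in it the same list moved mostly the other way. There 16 of the 23 genes were higher at the adjusted p, against 24.7% of all genes tested, and 6 were lower, against 23.8%. The median log2 fold change was 0.18. HMGCS1 averaged 292 ± 5.46 CPM (SD, n = 3) in HMC-1.2 and 459 ± 9.10 CPM (SD, n = 3) in clone 2, and its changes in the 2 comparisons differed by -1.61 on the log2 scale (SE 0.04, adjusted p = 7.67e-15 for the difference by edgeR). INSIG1 was lower in both comparisons, with log2 fold changes of -0.42 and -0.65, and the difference was 0.23 (SE 0.05, adjusted p = 0.00136 by edgeR).

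**Figure D2:**
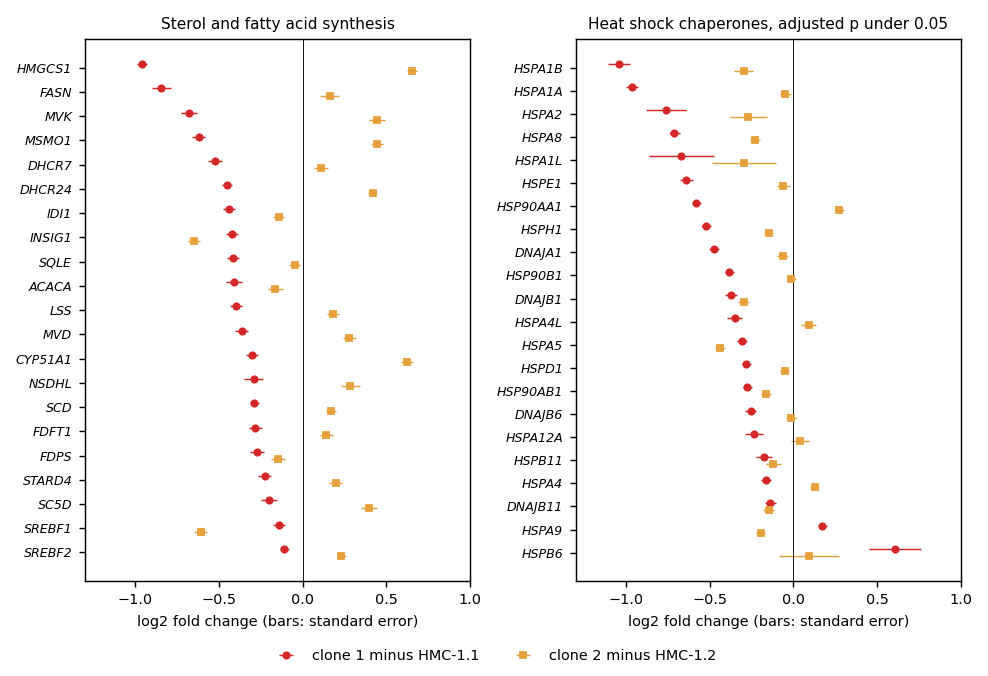
Log2 fold change (x axis) of each gene in clone 1 minus HMC-1.1 and in clone 2 minus HMC-1.2, with standard errors as bars. Left, genes of sterol and fatty acid synthesis, all below 0 for clone 1. Right, the heat shock chaperone genes with an adjusted p under 0.05 for clone 1, of which 20 are below 0 and 2 above.

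At the adjusted p 20 of the 36 heat shock chaperone genes tested were lower in clone 1. These proteins fold new and damaged proteins, and the inducible members are driven by HSF1, which binds inverted repeats of GAA. The family was chosen by gene name after earlier values of these data were known, so its counts are a description. The 250 bases before the start are shown for HSPA8 and HSPA1A, the constitutive and an inducible HSP70, with GAANNTTC and TTCNNGAA in capitals, including where they overlap. Both motifs read the same on the other strand, the sequences are RefSeq's on GRCh38.p14, and both read 5′ to 3′ along the gene. HSPA8 lies at chr11:123062137-123062386 on the minus strand and HSPA1A at chr6:31815293-31815542 on the plus strand.
HSPA8: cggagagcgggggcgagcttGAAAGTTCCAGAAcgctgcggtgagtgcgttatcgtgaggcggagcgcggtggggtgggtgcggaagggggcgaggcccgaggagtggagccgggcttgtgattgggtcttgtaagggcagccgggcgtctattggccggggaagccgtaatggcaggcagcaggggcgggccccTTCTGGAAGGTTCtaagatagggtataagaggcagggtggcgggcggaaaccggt
HSPA1A: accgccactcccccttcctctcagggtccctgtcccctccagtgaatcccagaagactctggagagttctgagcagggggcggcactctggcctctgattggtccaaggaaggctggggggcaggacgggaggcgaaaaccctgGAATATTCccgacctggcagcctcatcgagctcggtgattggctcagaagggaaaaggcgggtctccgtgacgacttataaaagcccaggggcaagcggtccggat

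Of the 36 chaperone genes tested, 34 had a promoter entry. GAANNTTC stood in 9 of them (26.5%), against 5.78% of all promoters of the same length, and TTCNNGAA in 4 (11.8%), against 6.62%. HSPB6, the chaperone gene called higher in clone 1, held both motifs. These matches too describe letters in a window and not bound sites.

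The 20 genes lower at the adjusted p stand against 9.83% of all genes, 2 were higher, against 8.87%, and 14 did not pass. The family has 46 members by name, 6 were called lower and 1 higher, against 0.339% and 0.671% of all genes tested, and the median log2 fold change was -0.22. HSPA1A stood at 116, 126 and 122 CPM in HMC-1.1 and at 61.3, 63.5 and 61.6 CPM in clone 1, a log2 fold change of -0.96 (SE 0.04, adjusted p = 3.98e-11 by edgeR). HSPA1B, a near-identical copy, stood at 44.6, 36.8 and 39.3 CPM and at 19.4, 20.8 and 18.4 CPM, a log2 fold change of -1.04 (SE 0.07). The counting software divides reads that fit both copies, so their separate values are uncertain, but both were lower in every clone 1 library.

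HSPA8, the constitutive HSP70, stood at 2328, 2364 and 2319 CPM in HMC-1.1 and at 1429, 1471 and 1382 CPM in clone 1. Its log2 fold change was -0.71 (SE 0.03). HSPE1, the mitochondrial co-chaperonin, fell from 171, 166 and 181 CPM to 109, 116 and 107 CPM, a log2 fold change of -0.64 (SE 0.04). The remaining genes called lower were HSPA2, at -0.76 (SE 0.12), and HSPA1L, at -0.67 (SE 0.20), which lies beside HSPA1A and shares sequence with it. HSP90AA1, the inducible HSP90, missed the fold criterion narrowly at -0.58 (SE 0.03), with 2015, 1991 and 1945 CPM in HMC-1.1 and 1341, 1316 and 1319 CPM in clone 1.

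Co-chaperones fell by less. HSPH1, an exchange factor for HSP70, had a log2 fold change of -0.52 (SE 0.03), DNAJA1 had -0.47 (SE 0.03) and DNAJB1 had -0.37 (SE 0.04). The endoplasmic reticulum chaperone HSPA5 had -0.31 (SE 0.03). Those higher at the adjusted p were HSPA9, the mitochondrial HSP70, at 0.17, and HSPB6, a small heat shock protein, called higher from 1.80, 1.81 and 2.27 CPM to 2.95, 3.10 and 2.93 CPM (0.61, SE 0.16).

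In clone 2 against HMC-1.2, 15 chaperone genes were lower and 3 higher at the adjusted p, against 23.8% and 24.7% of all genes there. The median was -0.08. HSPA1A had a log2 fold change of -0.05 there (SE 0.03, adjusted p = 0.239), and the difference from its change in clone 1 was -0.92 (SE 0.05, adjusted p = 1.01e-10 by edgeR). HSP90AA1 moved the other way, at 0.27 (SE 0.03) in clone 2, and the difference was -0.85 (SE 0.04). For DNAJB1 the changes were -0.37 and -0.30, and their difference, -0.08 (SE 0.05), had an adjusted p of 0.235.

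FOS and FOSB, immediate early genes that encode subunits of the AP-1 transcription factor and are induced through ERK, were called lower in clone 1. FOS stood at 22.6, 25.2 and 26.3 CPM in HMC-1.1 and at 12.8, 13.8 and 11.5 CPM in clone 1, a log2 fold change of -0.96 (SE 0.08, adjusted p = 5.77e-07 by edgeR). FOSB stood at 10.2, 16.9 and 16.1 CPM and at 7.53, 6.52 and 5.65 CPM, a log2 fold change of -1.13 (SE 0.18). HMC-1.1 replicate 1 was the lowest of its group for both, and was still above every clone 1 library.

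FOS and FOSB were also lower in clone 2 than in HMC-1.2, by -0.87 (SE 0.07) and -0.94 (SE 0.17) on the log2 scale. The mean of FOS was 40.6 ± 3.54 CPM in HMC-1.2 and 22.2 ± 0.70 CPM in clone 2 (SD, n = 3 each). The changes in the 2 comparisons differed by -0.08 (SE 0.11, adjusted p = 0.562) for FOS and by -0.19 (SE 0.25, adjusted p = 0.586) for FOSB, both by edgeR.

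Other readouts of ERK activity changed by less than FOS. In the list of 23 ERK feedback and immediate early genes, 22 were tested and 2 were called lower and none higher, against 0.339% and 0.671% of all genes tested. At the adjusted p 5 were lower and 2 higher, against 9.83% and 8.87% of all genes. In 9 every clone 1 library lay under every HMC-1.1 library, against 15.6% of all genes, and in 2 above, against 17.7%. The median log2 fold change was -0.10. Besides FOS and FOSB, the genes lower at the adjusted p were MYC at -0.26 (SE 0.03), DUSP5, a phosphatase of ERK, at -0.27 (SE 0.06) and ETV5, an ETS transcription factor, at -0.15 (SE 0.05). EGR1, an immediate early transcription factor, was higher at 0.16 (SE 0.04) and JUNB, another AP-1 subunit, at 0.17 (SE 0.04). DUSP6, the phosphatase that ERK induces against itself, stood at 386, 380 and 386 CPM in HMC-1.1 and at 379, 353 and 369 CPM in clone 1 (log2 fold change -0.06, SE 0.03, adjusted p = 0.165). MYC moved the other way in clone 2 against HMC-1.2 (0.43, SE 0.03).

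Genes downstream of STAT5 leaned lower without reaching 1.5-fold. Of 13 STAT5 factors and targets, all tested, 5 were lower and none higher at the adjusted p, against 9.83% and 8.87% of all genes. None was called, against 1.01% of all genes, and the median was -0.14. SOCS3, a feedback inhibitor of cytokine signalling, had a log2 fold change of -0.55 (SE 0.11), PIM2, a survival kinase, -0.30 (SE 0.05), CISH -0.26 (SE 0.05), SOCS1 -0.23 (SE 0.07) and IL2RA, the interleukin-2 receptor alpha chain, -0.14 (SE 0.05). For STAT5A and STAT5B themselves the log2 fold changes were -0.03 (adjusted p = 0.532) and 0.07 (adjusted p = 0.130) by edgeR. Among 19 genes of KIT and its proximal signalling, 18 were tested. At the adjusted p 2 were higher and 3 lower, against 8.87% and 9.83% of all genes, none was called and the median was -0.01.

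A small group of stress response genes was higher in clone 1. TRIB3, a pseudokinase induced by ATF4 and CHOP, stood at 203, 176 and 184 CPM in HMC-1.1 and at 373, 380 and 367 CPM in clone 1, a log2 fold change of 0.99 (SE 0.05, adjusted p = 3.71e-10 by edgeR). DDIT3, which encodes CHOP, stood at 22.5, 18.9 and 22.0 CPM and at 39.7, 38.9 and 36.3 CPM, a log2 fold change of 0.86 (SE 0.07). Neither pair of groups overlapped, and HMC-1.2 and clone 2 were lower than both, at 89.3 ± 5.2 and 90.8 ± 0.97 CPM for TRIB3 (SD, n = 3 each).

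These were 2 of the 15 tested genes of the list for ATF4 and the unfolded protein response, which has 17 members. Over all genes tested 0.671% were called higher. By the adjusted p 6 were higher and 2 lower, against 8.87% and 9.83% of all genes, and the median was 0.07. SESN2, a stress-induced sestrin, had a log2 fold change of 0.21 (SE 0.04), and ASNS, the asparagine synthetase, 0.15 (SE 0.04). ATF4 itself had 0.04 (SE 0.04, adjusted p = 0.485 by edgeR), and HSPA5, the marker of the unfolded protein response, was lower. PPP1R15A, the regulatory subunit that reverses eIF2alpha phosphorylation, is outside the list and was named after its values were seen; it stood at 137, 137 and 137 CPM in HMC-1.1 and at 230, 218 and 212 CPM in clone 1. In clone 2 against HMC-1.2 none of the 15 was higher and 9 were lower at the adjusted p, against 24.7% and 23.8% of all genes there.

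TXNIP, the inhibitor of thioredoxin that also limits glucose uptake, was called higher. It stood at 179, 165 and 164 CPM in HMC-1.1 and at 313, 299 and 304 CPM in clone 1, a log2 fold change of 0.85 (SE 0.04, adjusted p = 1.61e-10 by edgeR). It was the sole called gene among 13 tested FOXO targets (0.671% of all genes tested were called higher). At the adjusted p 2 of the 13 were higher and 1 lower, against 8.87% and 9.83% of all genes. ARRDC3, an arrestin of the same family as TXNIP, rose from 15.8, 18.2 and 13.8 CPM to 22.6, 27.5 and 24.1 CPM (0.64, SE 0.10); it was named after its values were seen. TXNIP moved the other way in clone 2 against HMC-1.2, at -0.63 (SE 0.04), while ARRDC3 had -0.02 there (SE 0.10, adjusted p = 0.896).

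Among host genes of small nucleolar RNAs, whose introns release the guides for ribosomal RNA modification, 9 of 17 were higher at the adjusted p. The 17 genes were chosen by name after values were known. Of them, 4 were called higher and none lower (0.671% of all genes tested were called higher), 1 was lower and 7 did not pass at the adjusted p, against 8.87% higher and 9.83% lower over all genes, and the median was 0.36. C6orf48 stood at 70.5, 63.8 and 66.3 CPM in HMC-1.1 and at 114, 118 and 115 CPM in clone 1, a log2 fold change of 0.79 (SE 0.05). SNHG8 had 0.72 (SE 0.06), SNHG1 0.65 (SE 0.05), ZFAS1 0.60 (SE 0.04) and GAS5, which missed the fold criterion, 0.48 (SE 0.04). In clone 2 against HMC-1.2 the same genes had a median of -0.09. There 1 was higher and 5 lower at the adjusted p, against 24.7% and 23.8% of all genes.

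C6orf48 lies at chr6:31834608-31839766, next to HSPA1B at chr6:31827738-31830254 and HSPA1A at chr6:31815543-31817946 (GRCh38, all on the plus strand). The 3 neighbours were all called, HSPA1A and HSPA1B lower and C6orf48 higher, so adjacent genes moved in opposite directions.

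**Figure D3:**
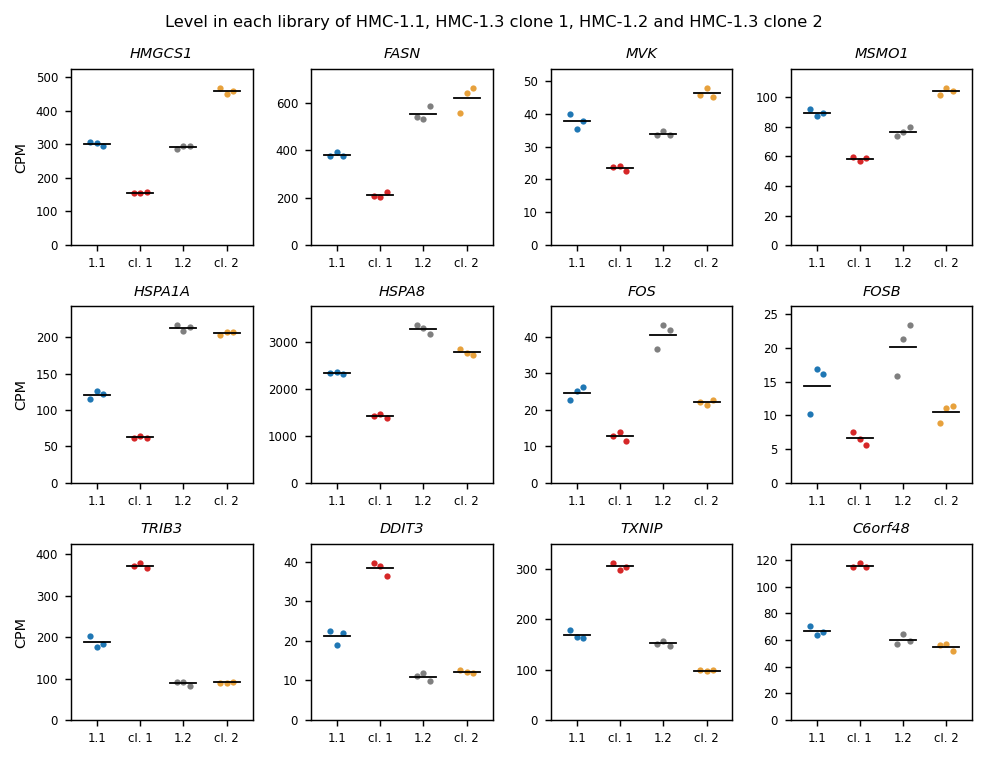
Level in CPM (y axis, from 0) of 12 genes in each library of the 4 groups, with HMC-1.1 and clone 1 on the left of each panel and HMC-1.2 and clone 2 on the right. Points are libraries and black lines are means of 3; sterol, fatty acid, chaperone and AP-1 genes are lower and TRIB3, DDIT3, TXNIP and C6orf48 higher in clone 1 than in HMC-1.1, with no overlap.

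Some histone genes were higher in clone 1. Most histone transcripts end without a poly(A) tail and are poorly captured by oligo-dT selection, which was used here, so the values describe only the polyadenylated part. By name 82 histone genes were found and 39 were tested, and the family was chosen after values were known. Of these, 9 were called higher and none lower, against 0.671% and 0.339% of all genes tested. At the adjusted p 15 were higher, 3 lower and 21 did not pass, against 8.87% higher and 9.83% lower over all genes, and the median was 0.28. Their summed level overlapped, at 2274 to 2418 CPM in HMC-1.1 and 2297 to 2387 CPM in clone 1. HIST1H2AC averaged 23.8 ± 1.00 CPM in HMC-1.1 and 40.1 ± 3.21 CPM in clone 1 (SD, n = 3 each), a log2 fold change of 0.75 (SE 0.06). HIST1H2BJ stood at 4.56, 4.12 and 4.23 CPM and at 7.70, 8.49 and 7.61 CPM, a log2 fold change of 0.88 (SE 0.11), and was higher in clone 2 than in HMC-1.2 too, by 0.78 (SE 0.12). HIST2H3A and HIST2H3C have the same values in every library (0.94, SE 0.18), and RSEM divides reads that fit both. They are counted separately above, and with genes of identical values taken once 8 histone genes were called. H2BFS, a histone H2B-like gene, rose from 1.01, 0.770 and 1.1 CPM to 1.27, 1.76 and 2.98 CPM.

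Mast cell identity genes differed little. Of 20 mast cell markers, 17 were tested and none was called, against 1.01% of all genes. At the adjusted p 6 were higher and none lower, against 8.87% and 9.83% of all genes, and the median log2 fold change was 0.03. Their summed level was 5900 to 6016 CPM in the HMC-1.1 libraries and 6101 to 6279 CPM in those of clone 1. KIT stood at 1933, 1890 and 1875 CPM in HMC-1.1 and at 2076, 1973 and 2116 CPM in clone 1, a log2 fold change of 0.11 (SE 0.03, adjusted p = 0.0144 by edgeR). HDC, which makes histamine, stood at 1505, 1582 and 1528 CPM and at 1517, 1537 and 1483 CPM (-0.02, SE 0.03, adjusted p = 0.635). GATA2, a mast cell transcription factor, had -0.02 (SE 0.03, adjusted p = 0.671), and MITF, another, 0.13 (SE 0.03).

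Some defining markers were at or near 0 in both sublines. The mature granule proteases chymase (CMA1) and cathepsin G (CTSG) and the receptor MRGPRX2 were not tested, with at most 2, 10 and 1 counts in any of the 6 libraries. MS4A2 and FCER1A, the beta and alpha chains of the high-affinity IgE receptor, passed the filter over the 12 libraries but had at most 10 and 6 counts in these 6.

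The tryptase genes were near one level in HMC-1.1 and clone 1 and far from HMC-1.2. TPSAB1 stood at 33.7, 34.3 and 34.9 CPM in HMC-1.1 and at 41.1, 40.6 and 39.2 CPM in clone 1 (log2 fold change 0.23, SE 0.05), against 575 ± 20.6 CPM in HMC-1.2 and 27.2 ± 1.85 CPM in clone 2 (SD, n = 3 each). TPSB2, its near-identical neighbour with which it may share reads, had 0.21 (SE 0.05). SLC18A2, the vesicular amine transporter that loads histamine into granules, had 0.15 (SE 0.03), and ALOX5AP, which feeds leukotriene synthesis, had 0.48 (SE 0.06). Of 15 tested genes for granule contents and mediators, 6 were higher and none lower at the adjusted p, against 8.87% and 9.83% of all genes. None was called, against 1.01% of all genes, and the median was 0.11. In clone 2 against HMC-1.2 the median of the same genes was -1.24.

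**Figure D4:**
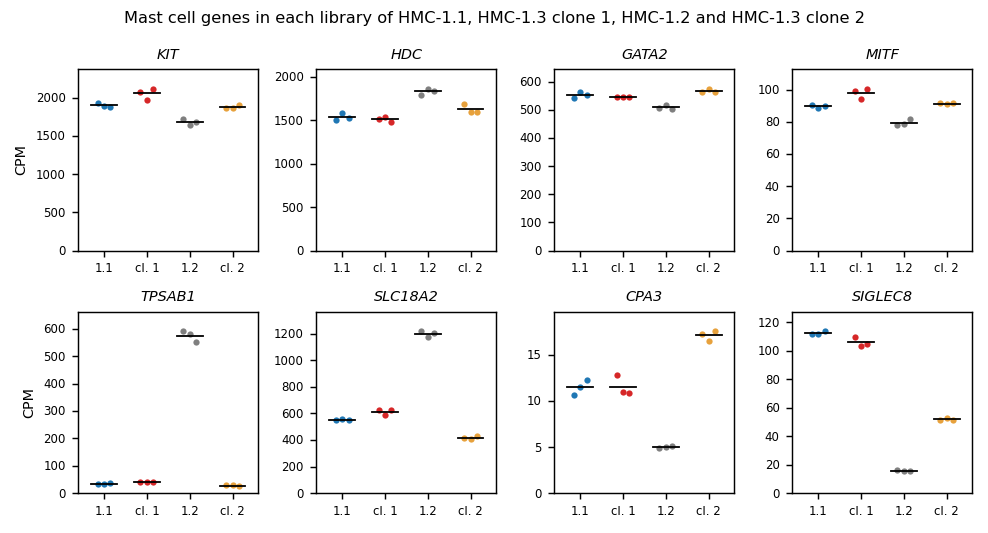
Level in CPM (y axis, from 0) of 8 mast cell genes in each library of the 4 groups, with points for libraries and black lines for means of 3. Clone 1 lies near HMC-1.1 for all 8, while TPSAB1, SLC18A2, CPA3 and SIGLEC8 differ widely from HMC-1.2.

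Markers of other blood and tissue lineages gave no called gene, against 1.01% of all genes tested, and few of them were tested. Basophil and eosinophil markers had 2 higher and 1 lower of 6 tested at the adjusted p, against 8.87% and 9.83% of all genes. PRG2, the eosinophil major basic protein, had a log2 fold change of 0.45 (SE 0.07) and IL5RA 0.38 (SE 0.08). CLC, the galectin of Charcot-Leyden crystals, had -0.57 (SE 0.06). No erythroid, megakaryocyte, myelomonocytic, lymphoid or epithelial and fibroblast marker passed the adjusted p, among 5, 2, 2, 1 and 3 tested.

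Surface, adhesion and survival genes moved by small steps. None of the 38 mastocytosis surface genes was called, against 1.01% of all genes tested, a share at which so short a list may hold none. At the adjusted p 9 were higher and 4 lower, against 8.87% and 9.83% over all genes. CSF2RA, the GM-CSF receptor alpha chain, had a log2 fold change of 0.48 (SE 0.05), FCGR2A 0.29 (SE 0.04), CD44 0.10 (SE 0.03) and TFRC, the transferrin receptor, -0.30 (SE 0.03). Among 21 tested adhesion genes 7 were higher and none lower at the adjusted p, against 8.87% and 9.83% of all genes, and 2 were called, against 0.671%. These were CADM1, a mast cell adhesion molecule, which rose from 9.21, 9.87 and 8.73 CPM to 13.8, 13.5 and 16.1 CPM (0.64, SE 0.08), and NCAM1, from 0.265, 0.330 and 0.235 CPM to 0.524, 0.481 and 0.511 CPM (0.86, SE 0.26, adjusted p = 0.0367 by edgeR). The call of NCAM1 was lost in 9 of 15 alternative settings. ITGAL, the alpha chain of LFA-1, stood at 4.48, 4.70 and 4.16 CPM and at 5.77, 4.99 and 5.09 CPM, against 406 ± 4.93 CPM in HMC-1.2.

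MCL1, an anti-apoptotic BCL2 protein, stood at 275, 283 and 278 CPM in HMC-1.1 and at 247, 241 and 249 CPM in clone 1, a log2 fold change of -0.18 (SE 0.03). BCL2L11, which encodes the pro-apoptotic BIM, was also lower, at -0.16 (SE 0.04), and BBC3, which encodes PUMA, was higher at 0.18 (SE 0.04). No BCL2 family gene was called, against 1.01% of all genes tested. CCL2, a chemokine, stood at 15.1, 15.8 and 17.2 CPM and at 12.4, 12.9 and 11.9 CPM (-0.37, SE 0.08), and CCL1 had -0.39 (SE 0.07). Of the 15 cytokines and chemokines tested, 3 were lower and none higher at the adjusted p, against 9.83% and 8.87% of all genes.

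Proliferation and glycolysis genes leaned lower in clone 1. Of 25 proliferation genes, 13 were lower and 1 higher at the adjusted p, against 9.83% and 8.87% of all genes tested. None was called, against 1.01% of all genes, and the median was -0.10. CCNE2, a cyclin of S phase entry, had a log2 fold change of -0.51 (SE 0.07), the replication licensing factor CDC6 -0.40 (SE 0.04) and the sliding clamp PCNA -0.20 (SE 0.04). MKI67 stood at 416, 492 and 421 CPM in HMC-1.1 and at 312, 297 and 399 CPM in clone 1 (-0.40, SE 0.10), with clone 1 replicate 3 close to HMC-1.1. Of 24 tested genes of glycolysis and hypoxia, 8 were lower and 2 higher at the adjusted p, against the same shares. Among the lower ones were LDHA at -0.30 (SE 0.03) and PGK1 at -0.20 (SE 0.03).

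Interferon-stimulated and p53 genes had no common direction. Over all genes tested 8.87% were higher and 9.83% lower at the adjusted p, the measure of the counts that follow. Among 27 interferon-stimulated genes 2 were higher and 3 lower, near those shares, with a median of 0.02. Of 17 tested genes of MHC presentation 4 were higher and none lower, and their summed level was 3045 to 3203 CPM in HMC-1.1 and 3349 to 3514 CPM in clone 1; HLA-E had a log2 fold change of 0.25 (SE 0.03), and HLA-B had 0.23 (SE 0.04). Of 26 tested p53 targets 5 were higher and 2 lower, with GDF15, a stress-induced cytokine, at 0.48 (SE 0.04) and MDM2, the ubiquitin ligase that degrades p53, at -0.21 (SE 0.04). All 8 tested cancer-testis antigens had a negative change, 6 of them past the adjusted p, and the median was -0.23, with MAGEA4 at -0.14 (SE 0.04).

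**Figure D5:**
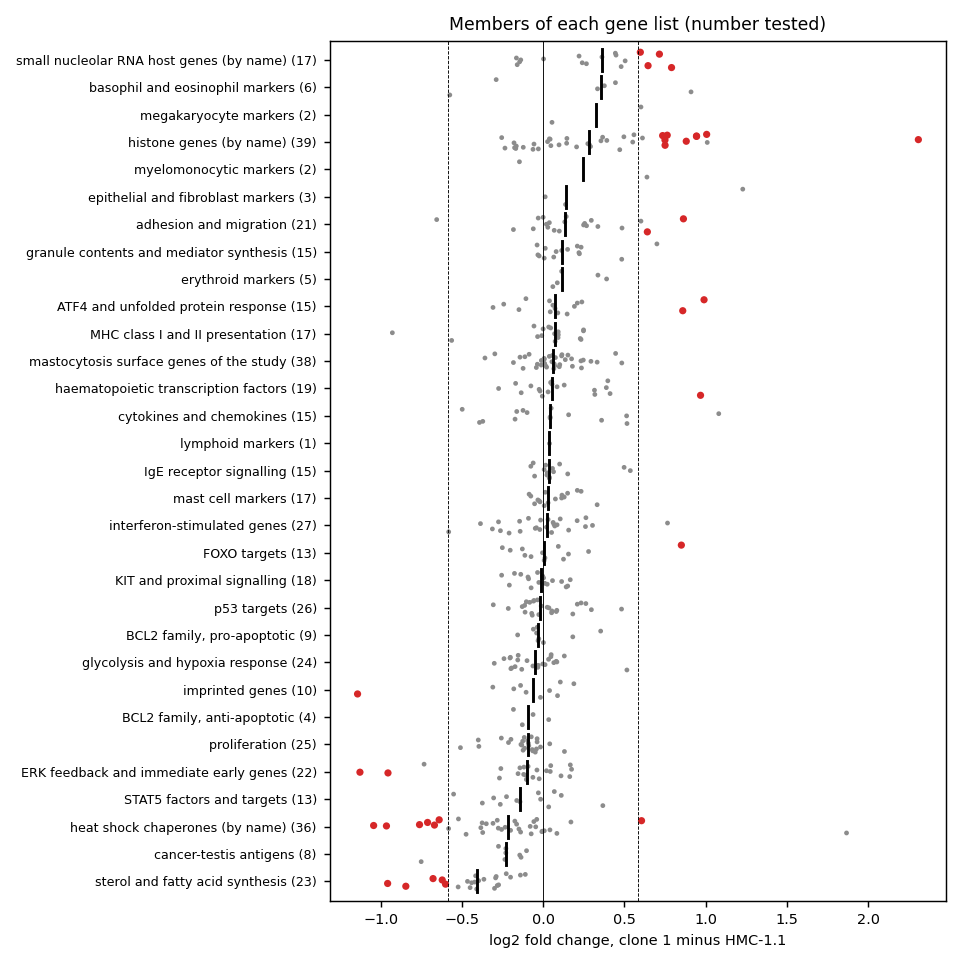
Log2 fold change, clone 1 minus HMC-1.1 (x axis), of each tested member of the 28 gene lists and 3 gene families, ordered by their median; the number tested is in parentheses. Red points are called genes and dashed lines mark 1.5-fold; the sterol list has the lowest median, -0.41, and small nucleolar RNA host genes the highest, 0.36.

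Outside the lists, the largest rise among genes of at least 1 CPM was that of KLHDC7B, a kelch-domain gene at chr22:50545899-50551023. It stood at 13.5, 12.3 and 12.1 CPM in HMC-1.1 and at 34.0, 35.0 and 34.7 CPM in clone 1, a log2 fold change of 1.45 (SE 0.07, adjusted p = 3.71e-10 by edgeR). It was at 24.9 ± 2.37 CPM in HMC-1.2 and 3.14 ± 0.08 CPM in clone 2 (SD, n = 3 each), so the 2 edited clones lay on opposite sides of both sublines. The neighbouring ODF3B rose from 3.02, 2.47 and 2.22 CPM to 4.22, 5.18 and 5.48 CPM (0.95, SE 0.15). SIGLEC15, a sialic acid binding lectin, rose from 0.690, 0.797 and 0.653 CPM to 1.3, 1.58 and 1.28 CPM.

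BHLHE41, a repressor of the circadian clock, stood at 0.796, 0.605 and 0.732 CPM in HMC-1.1 and at 1.46, 1.31 and 1.42 CPM in clone 1 (0.97, SE 0.21). It averaged 0.011 CPM in HMC-1.2 and 5.59 ± 0.68 CPM in clone 2. It was the sole called gene among the 19 tested haematopoietic transcription factors (0.671% of all genes tested were called higher). The long non-coding or clone-named genes CTD-3064M3.1 (1.32, SE 0.18), RP4-639J15.3 (1.01, SE 0.22), RP1-153G14.4 (1.00, SE 0.28) and RP11-304L19.4 (0.97, SE 0.19) completed the 12 largest rises, with means under 5 CPM.

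Among the largest falls, CH507-338C24.1 is an uncertain long non-coding gene of chromosome 21. It had 146, 299 and 192 counts in HMC-1.1 and 3, 2 and 14 counts in clone 1, and averaged 0.741 CPM in HMC-1.2 with an SD of 1.08, larger than its mean. XXbac-BPG246D15.9 (-1.2, SE 0.24), NPIPB9 (-1.16, SE 0.30), a member of a multicopy family, and KCNQ1OT1 (-1.14, SE 0.35), the antisense transcript of an imprinted locus, had wide errors. SYNE2, which encodes the nuclear envelope protein nesprin-2, fell from 2.79, 3.41 and 3.32 CPM to 1.66, 1.52 and 1.93 CPM (-0.90, SE 0.17). KRT9, a keratin, fell from 3.05, 3.19 and 3.32 CPM to 1.88, 1.66 and 2.1 CPM (-0.76, SE 0.10), and was at 63.6 ± 0.95 CPM in HMC-1.2.

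A pair of low genes of chromosome 1, named after their values were seen, each had counts in only 1 of these sublines. RP1-163M9.8, at chr1:16656879-16667524, had 23, 16 and 13 counts in HMC-1.1 and 0 in every clone 1 library, at least 5.44-fold lower against a floor of 3 counts per library. RP5-1182A14.7, at chr1:16739938-16750589 on the other strand, had 0 counts in every HMC-1.1 library and 23, 38 and 35 in clone 1, at least 10.7-fold higher. Whether reads were divided between similar copies there was not tested.

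Genes called in clone 1 against HMC-1.1 were then set beside those of clone 2 against HMC-1.2, in which 1273 genes were called higher (7.98%) and 1357 lower (8.51%). Of the 161 genes, 20 were called in the same direction, which is 12.4% of the clone 1 list and 0.76% of the clone 2 list, 10 higher and 10 lower. A larger number, 52, were called in opposite directions, which is 32.3% and 1.98%, and in 41 of these clone 1 was above HMC-1.1 while clone 2 was below HMC-1.2. The remaining 89 (55.3%) were called in clone 1 against HMC-1.1 alone.

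Of the 10 genes higher in both, the 6 with the largest values of the smaller of the 2 changes were RP4-773A18.10, CTC-497E21.3, YPEL4, BHLHE41, HIST1H2BJ and RP1-86C11.7. Of these, YPEL4 rose from 0.345, 0.385 and 0.627 CPM to 0.993, 0.881 and 0.881 CPM (1.01, SE 0.34) and RP4-773A18.10 from 0.072 to 0.505 CPM on average. Of the 10 genes lower in both, the 6 chosen by the same rule were GFPT2, RP11-1334A24.5, RPL9P25, ENOSF1, IL32 and FOSB, and FOS was among the others. YPEL4 and RPL9P25 lost the call in 10 of the 15 alternative settings other than the test against 1.5-fold itself, and IL32 in 7. RP1-86C11.7 lost it in 6, CTC-497E21.3 in 5, ENOSF1 in 4, RP4-773A18.10 in 2 and BHLHE41 in 1. Of 14 settings with a value, RP11-1334A24.5 lost it in 9 and GFPT2 in 5. FOSB and HIST1H2BJ kept the call in all 15. IL32, a cytokine gene, fell from 0.584, 0.357 and 0.392 CPM to 0.248, 0.160 and 0.142 CPM (-1.26, SE 0.38). GFPT2, an enzyme of hexosamine synthesis, stood at 0.212, 0.165 and 0.183 CPM in HMC-1.1, and was at least 2.19-fold lower in clone 1 against a floor of 3 counts per library. ENOSF1 stood at 0.345, 0.577 and 0.444 CPM and at 0.110, 0.214 and 0.170 CPM, against 6.73 ± 0.22 CPM in HMC-1.2. Apart from FOSB and HIST1H2BJ, these 12 genes lay near or under 1 CPM in HMC-1.1.

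No chromosome stood apart by its median. The median log2 fold change of the 23 chromosomes examined ran from -0.01 to 0.03. Of 296 windows of 10 Mb with at least 10 genes tested, 3 had a median beyond 0.1 in size, at chr5:40000001-50000000, chr13:10000001-20000000 and chr22:50000001-60000000, and the window medians ran from -0.10 to 0.16. Among genes of at least 10 CPM none of 270 windows was beyond 0.1. Called genes were spread unevenly. Chromosome 6 held 16 among 797 tested (2.01%, against 1.01% of all genes), and the most in 1 window were 8 of 96, all higher, at chr6:20000001-30000000 (8.33%, against 0.671% called higher over all genes), where a histone gene cluster lies.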

How the data were processed

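RNA of 12 libraries, 3 from each of 4 groups, was sequenced after oligo-dT capture with a stranded kit. Groups and replicate numbers were taken from the sample titles. Per the study's methods and the submitters' processing notes, the authors used cutadapt 2.10 for trimming, STAR 2.5.3 for alignment to hg38 (Gencode 39) and RSEM 1.3.0 for quantification. The deposited table holds RSEM expected counts, of which 7.39% were not whole, and FPKM, the same counts scaled by the authors to gene length and depth.

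Expected counts were rounded and fitted with edgeR 4.0.16 (R 4.3.3): TMM scaling, filterByExpr (15944 of 58381 genes kept), and the quasi-likelihood test over all 12 libraries in 4 groups, which share 1 estimate of the spread (common biological coefficient of variation 0.0442). Adjusted p-values are Benjamini-Hochberg over all genes tested. The contrast was 3 libraries against 3. The difference between the changes in clone 1 and in clone 2 was a contrast of the same fit. The comparison, gene lists, families and alternatives were chosen with earlier results of these data known.

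Named genes were the 12 largest rises and falls among called genes of at least 1 CPM with groups that did not overlap, called list members, the 6 largest in each direction called in both separate comparisons, and KIT, STAT5A, STAT5B, MCL1, BCL2L11, CCL2 and CD44. Members of lists and families are given as examples beside their counts. Positions are from Gencode 44 (98.9% of gene IDs matched) and promoters from RefSeq's table of GRCh38.p14, with the first listed start. Alternatives used DESeq2 1.42.0, limma 3.58.1 on log2(FPKM + 1) and log2(FPKM + 0.1), and the other settings described in the closing section. On simulated counts for this comparison (15944 genes), edgeR called 95 of 100 genes changed 2-fold and 100 of 100 changed 4-fold, with 6 false calls. The changed genes were drawn from those above 1 CPM, so this recovery does not cover the 61 called genes below it. Some members of the lists are counted but not reported here by name.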

Additional observations from a re-analysis of the deposited data

Results flagged for a closer look

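For 10 named genes the change in clone 1 against HMC-1.1 and the change in clone 2 against HMC-1.2 were each called, in opposite directions. They also differed in a test of the difference itself (edgeR, same fit, Benjamini-Hochberg adjusted). That test used the same libraries that selected these genes, so its result follows largely from the selection and adds no separate support. The direction of the difference is the clone 1 change minus the clone 2 change, on the log2 scale. Higher in clone 1 and lower in clone 2 were CTD-3064M3.1, with a difference of 5.51 (SE 0.29), NCAM1, with 4.44 (SE 0.29), KLHDC7B, with 4.44 (SE 0.11, adjusted p = 2.83e-15), SIGLEC15, with 2.88 (SE 0.31), RP1-153G14.4, with 2.15 (SE 0.45, adjusted p = 0.000948), RP11-304L19.4, with 1.98 (SE 0.28), and TXNIP, with 1.48 (SE 0.05, adjusted p = 3.36e-13). Lower in clone 1 and higher in clone 2 were XXbac-BPG246D15.9, with -1.90 (SE 0.32), HMGCS1, with -1.61 (SE 0.04, adjusted p = 7.67e-15), and SYNE2, with -1.59 (SE 0.24). Both comparisons set cells without V560G-KIT against cells with it. Clone 1 and HMC-1.1 differ in D816V-KIT as well, whereas clone 2 and HMC-1.2 both carry it, so the genotype contrasts are unlike. HMC-1.2 is also the parent of both clones and HMC-1.1 is not, so genotype and derivation cannot be told apart. The call in clone 1 was lost for NCAM1 in 9, RP1-153G14.4 in 6, SIGLEC15 in 3 and SYNE2 in 2 of 15 alternative settings other than the test against 1.5-fold itself.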

How the results depend on the processing

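The counts of called genes moved with the model and the fold rule, and no named gene changed direction. DESeq2 gave no adjusted p for several low named genes, H2BFS, SIGLEC15 and YPEL4 among them, and these count as lost calls. Their log2 fold changes barely moved, as for H2BFS, 1.06 in edgeR and 1.05 in DESeq2. Of the 161 calls (107 higher, 54 lower, 20 shared with clone 2 against HMC-1.2 and 52 opposite to it), DESeq2 gave 87 (55 higher, 32 lower, 9 shared, 31 opposite), and limma on log2(FPKM + 1) gave 61 (47 higher, 14 lower, 7 shared, 13 opposite, 8 list members in place of 14). On log2(FPKM + 0.1) limma gave 33 lower, 12 shared and 33 opposite. Without a filter on low counts 98 genes were lower and 34 shared. A test against 1.5-fold itself (glmTreat) called 9 genes, 3 higher and 6 lower, with 1 shared, 2 opposite and 5 list members, and 2 sterol and 2 chaperone genes: FASN, FOS, HMGCS1, HSPA1A, HSPA1B, KLHDC7B, RP1-163M9.8, TRIB3 and TXNIP. Leaving out 1 library at a time gave 107 to 197 genes, 68 to 100 higher, 37 to 97 lower, 14 to 21 shared, 32 to 49 opposite and 12 to 15 list members. Clone 1 replicate 2 decided the low ends (107 genes, 68 higher and 32 opposite without it), and without clone 1 replicate 3, the resent library, 97 were lower. Without any 1 library the 23 sterol genes stayed lower at the adjusted p, and 18 to 20 chaperone genes did; both limma settings gave 21 and 17.

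With the replicate number as a block (the replicate block fit) 165 genes were called, 107 higher and 58 lower. The same-numbered libraries did not deviate together (r = 0.23, -0.26 and -0.15), so the numbers do not pair them. Of 766 values of the 48 named genes over 16 settings, 627 stayed on the same side of the threshold, 139 lost the call and none reversed. Only 41 of the 48 were called, and the others, KIT and STAT5A among them, had no call to lose. With those others included, 24 of the 48 stayed the same in every setting but glmTreat, so many named calls were lost at least once. Low genes had wide ranges over the settings, from -7.21 to -1.01 for CH507-338C24.1, from -3.48 to -0.06 for GFPT2 and from -1.48 to -0.01 for KCNQ1OT1, while HMGCS1 ran from -0.98 to -0.95. Genes under 1 CPM are limited by depth, and the single edited clone limits all results.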
